A study of Mus musculus with 11 samples.

Results

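Dlg1 to Dlg4 and Dlgap1 to Dlgap4 encode the scaffold proteins that hold glutamate receptors at the excitatory synapse. They were taken by name from the deposited count tables, 8 of 24421 genes, and all 8 had enough counts in every library to be tested. The 4 Dlg genes encode SAP97, PSD-93, SAP102 and PSD-95, and the 4 Dlgap genes encode GKAP (also SAPAP1), SAPAP2, SAPAP3 and SAPAP4. RNA sequencing of mouse hippocampus gave 11 libraries, 5 of vehicle and 6 of particulate matter (PM). The mothers had received normal saline (vehicle) or PM at 200 µg per kg through the nose on pregnancy days 9, 12 and 15, and gave birth on day 21. The offspring were 14 to 18 weeks old. The labels give no strain, sex or litter, and do not say whether libraries came from separate animals, so the p-values speak only of how these samples vary, and that variation may be technical. The libraries came in 2 deposits. Vehicle and PM replicates 1 to 3 formed the first set, and the second was made of vehicle 4 and 5 with PM 4 to 6.

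Dlg proteins are membrane-associated guanylate kinases (MAGUKs). Each carries PDZ domains that grip the tails of NMDA receptors, potassium channels and adhesion molecules, followed by an SH3 domain and a guanylate kinase-like domain that no longer acts as an enzyme. The guanylate kinase-like domain binds Dlgap proteins, and the last residues of a Dlgap protein bind the PDZ domain of Shank, which Homer then links to metabotropic glutamate receptors and the cytoskeleton. In the hippocampus this chain forms the core of the postsynaptic density.

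The starts of the Dlg coding sequences are shown because palmitate attached to cysteines near the start of PSD-95 and PSD-93 anchors these scaffolds at the membrane, while the annotated principal form of Dlg1 begins differently. The first 60 coding bases of each principal transcript (GENCODE M21, GRCm38, plus strand, joined across exons) are given 5′ to 3′, with every TGT or TGC cysteine codon in capitals.
Dlg1: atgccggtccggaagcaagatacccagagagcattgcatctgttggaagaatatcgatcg
Dlg2: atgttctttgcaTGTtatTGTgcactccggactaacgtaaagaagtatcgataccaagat
Dlg3: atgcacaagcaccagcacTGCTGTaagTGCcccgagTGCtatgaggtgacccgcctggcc
Dlg4: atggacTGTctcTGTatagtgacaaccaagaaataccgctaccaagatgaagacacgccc
Dlg4 had cysteine codons at positions 3 and 5 counted from the start codon, and Dlg2 at positions 5 and 7. Dlg3 had 4 in this window, while Dlg1 had none.

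The ends of the Dlgap coding sequences are shown because the PDZ ligand for Shank lies there. The last 30 coding bases before the stop codon are given 5′ to 3′, with the last 4 codons in capitals.
Dlgap1: atctacatccccgaggcgCAGACCCGGCTC
Dlgap2: atctacatccctgaggccCAGACGCGGCTC
Dlgap3: atctacatccccgaggccCAGACCAGGCTG
Dlgap4: atttatgtccccgaggccCAGACCAGGCTC
The members can be told apart by reads of this study. Between members of a family the aligned coding sequences were 68.2% to 71.7% identical for the Dlg genes and 62.6% to 68.1% for the Dlgap genes. The longest run of bases shared by 2 transcripts of a family was 26 bases, against reads of 100 bases. In Dlg2 and Dlg4 that run was ggcctgggcttcaacattgtgggcgg.

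The genes differ widely in the length of genome they cover. All 8 lie on the plus strand of GRCm38. Dlg2 covers chr7:90476672-92449247 (1972.6 kb), the longest span of the family, and Dlg4 covers chr11:70016942-70047522 (30.6 kb), the shortest. Dlg1 lies at chr16:31663443-31875129 (211.7 kb) and Dlg3 at chrX:100767722-100818410 (50.7 kb). Dlgap1 lies at chr17:69969073-70821413 (852.3 kb) and Dlgap2 at chr8:14095865-14847680 (751.8 kb). Dlgap3 lies at chr4:127169204-127237022 (67.8 kb) and Dlgap4 at chr2:156613705-156764363 (150.7 kb).

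The vehicle and PM libraries differed in composition, which bears on every value below. Counts assigned to genes ran from 6012116 to 12496651 in vehicle and from 10938521 to 17763893 in PM libraries. Counts with no feature were 60.9% to 62.0% of all counts in vehicle, 18.8% to 21.4% in the first set of PM and 29.3% to 34.0% in the second. The ribosomal RNA precursor Rn45s took 0.792% to 2.17% of gene counts in vehicle and 4.01% to 17.0% in PM. This composition and the exposure cannot be told apart. The 4 Y-linked genes Ddx3y, Kdm5d, Uty and Eif2s3y had 2126 to 2436 counts together in the 3 vehicle libraries of the first set and 0 in the 2 of the second, so set and sex-linked composition cannot be told apart in vehicle. PM replicates 1, 2, 4 and 5 carried 2140 to 2206 such counts, and replicates 3 and 6 carried 1 and 0. The lowest count of any member in a library was 333 (Dlgap2 in PM replicate 3) and the highest 18063 (Dlg4 in PM replicate 2), for which counting error alone gives a coefficient of variation of 5.48% and 0.744%.

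Within the scaffold families PM and vehicle differed in opposite directions by gene. Over all libraries 2 members were higher in PM (Dlg4 and Dlgap3), 5 were lower (Dlg1, Dlg2, Dlgap1, Dlgap2 and Dlgap4) and Dlg3 did not pass the test (edgeR's quasi-likelihood test with the set as covariate, Benjamini-Hochberg adjustment over all 14982 tested genes, threshold 0.05). The same test called 69.1% of all tested genes, 32.7% higher and 36.4% lower, so a call alone sets no member apart. The median log2 fold change was -0.43 over the 8 members and -0.04 over all tested genes. All PM libraries lay above all vehicle libraries for 1 member (Dlg4) and below them for 4 (Dlg1, Dlg2, Dlgap1 and Dlgap2), against 52.4% of all tested genes whose groups did not overlap (24.3% above and 28.1% below). With the trends of fold change with transcript length and GC content removed, 4 members were higher and 3 lower, against 36.8% and 27.4% of all tested genes, and the directions of Dlg1, Dlg3 and Dlgap1 turned.

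**Figure D1:**
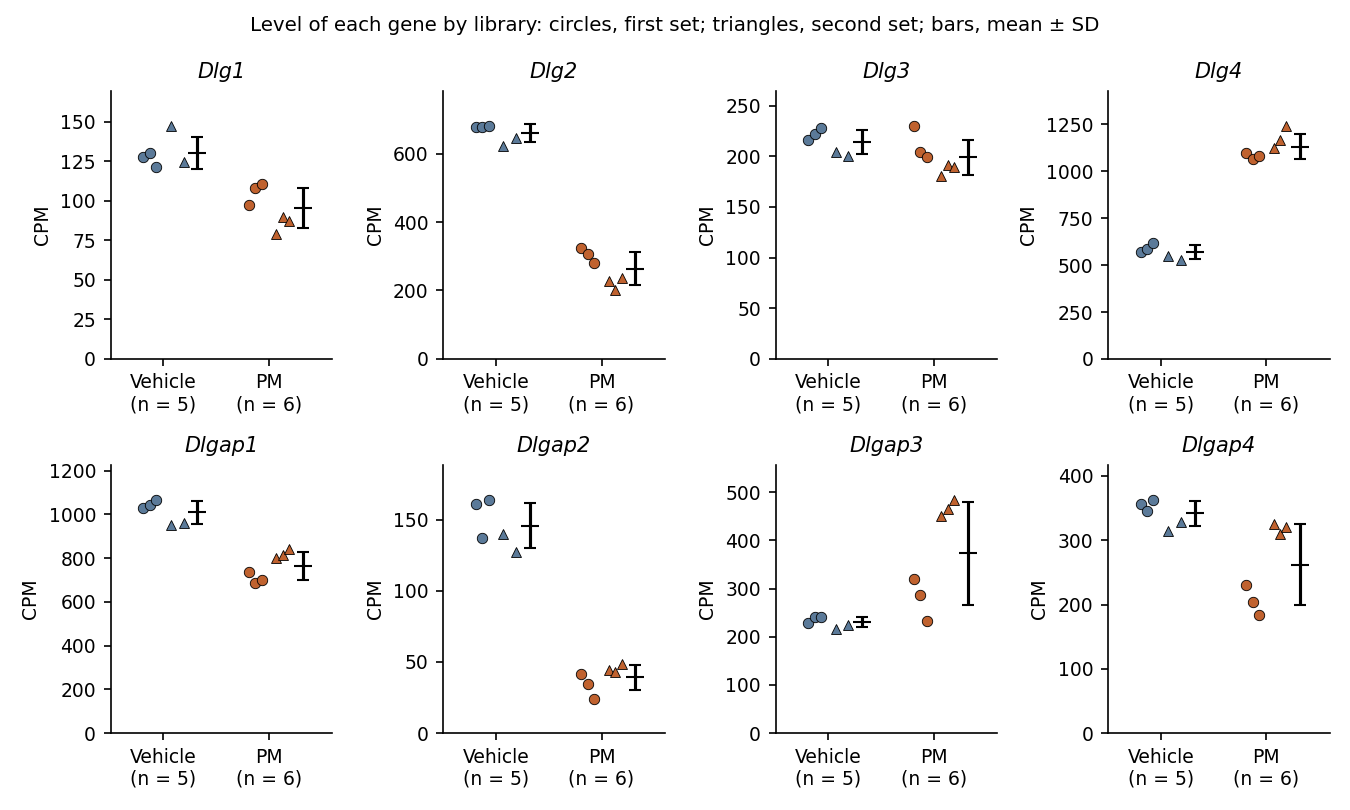
Level of each scaffold gene in every library, in CPM (linear axis from 0), for vehicle (5 libraries) and PM (6 libraries); circles are the first set, triangles the second, and bars the mean ± SD. Dlg4 lies higher and Dlg2 and Dlgap2 lower in all PM libraries than in all vehicle libraries, while the PM values of Dlgap3 and Dlgap4 split by set.

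Dlg4, the gene of PSD-95 and the most abundant MAGUK of excitatory synapses, rose in PM. Levels in CPM (counts scaled to a library size corrected by TMM) were 569.7, 588, 618, 547 and 528 in vehicle replicates 1 to 5. They were 1095, 1066 and 1083 in the first set of PM libraries and 1124.5, 1168 and 1244 in the second. Every PM library lay above every vehicle library. The mean rose 1.98-fold, from 569.9 ± 35.0 (SD, 5 libraries) to 1130.2 ± 66.4 CPM (SD, 6 libraries), with a log2 fold change of 0.99 (SE 0.074, edgeR adjusted p = 7.51e-08). Set by set the rise was 0.87 and 1.13, and their difference of 0.26 did not pass the test (SE 0.12, edgeR adjusted p = 0.116).

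Dlg2, the gene of PSD-93, moved the other way. It was at 677, 679, 682, 622.1 and 646 CPM in vehicle replicates 1 to 5. The PM libraries gave 323, 307 and 281 CPM in the first set and 229, 201 and 237 CPM in the second. All PM values lay below all vehicle values, and all second-set PM values below all first-set PM values. Dlg2 fell 2.49-fold, from 661 ± 26.2 (SD, n = 5) to 263 ± 48.0 CPM (SD, n = 6), a log2 fold change of -1.32 (SE 0.086, edgeR adjusted p = 2.33e-08). The log2 fold change by set was -1.16 and -1.51, and the difference of -0.35 did not pass (edgeR adjusted p = 0.0617). That difference did pass with DESeq2 size factors (-0.43, edgeR adjusted p = 0.024), with no filter on low counts (-0.48, 0.0177), without PM replicate 3 (-0.40, 0.0309) and without PM replicate 6 (-0.51, 0.0154). The fall of Dlg2 shrank to -0.25 with transcript length and GC trends taken out (SE 0.070, edgeR adjusted p = 0.00641) and turned to 0.53 when the trend with gene span was removed as well, an alternative chosen after seeing the data. With the replicate block as well as the length and GC removal it was -0.24 and no longer passed (edgeR adjusted p = 0.0585), and in the first set that removal left -0.13 (edgeR adjusted p = 0.123).

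Dlg1, the gene of SAP97, which also traffics AMPA receptors, fell by less. Vehicle replicates 1 to 5 had 128, 130.2, 121, 148 and 124 CPM. PM libraries had 97.5, 108 and 111 CPM in the first set and 78.9, 89.7 and 87.1 CPM in the second. The groups did not overlap, although the highest PM value stood close to the lowest vehicle value. The mean went from 130.2 ± 10.3 to 95.4 ± 12.5 CPM, a log2 fold change of -0.44 (SE 0.094, edgeR adjusted p = 0.000836). The call was lost when the first set was fitted alone (-0.16, edgeR adjusted p = 0.143). Within the joint fit the first-set value of -0.26 lost its call with DESeq2 size factors (-0.20), with no filter (-0.11) and without vehicle replicate 1 (-0.25), PM replicate 1 (-0.21) or PM replicate 6 (-0.16). Over all libraries the value turned to 0.19 with transcript length and GC trends taken out (edgeR adjusted p = 0.0604).

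Dlg3, the X-linked gene of SAP102, a scaffold prominent early in synapse development, was the member with no call over all libraries. It ran from 200.2 to 228 CPM in vehicle (median 216) and from 180.4 to 230.4 CPM in PM (median 196), with overlapping groups. The log2 fold change was -0.09 (SE 0.067, edgeR adjusted p = 0.252), and near 0 its sign changed with the processing. It passed the threshold, at 0.28, with transcript length and GC trends taken out (SE 0.065, edgeR adjusted p = 0.00192), and also with gene span removed too (0.25). The vehicle libraries without Y-linked counts had 203.95 and 200.2 CPM, the lowest of their group, and the PM libraries without them had 199.8 and 189 CPM, inside the range of the rest of PM.

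Dlgap2, the gene of SAPAP2, fell most among the 8. Its vehicle levels were 161, 137, 164, 140.1 and 127 CPM. PM libraries had 41.2, 34.2 and 23.8 CPM in the first set and 44.7, 42.7 and 48.7 CPM in the second. Every PM library lay below every vehicle library. The fall was 3.80-fold, from 146 ± 15.9 (SD, n = 5) to 39.2 ± 8.92 CPM (SD, n = 6), a log2 fold change of -1.93 (SE 0.15, edgeR adjusted p = 1.22e-07). With transcript length and GC trends taken out it was -2.10, and with gene span removed too it was -1.40, both past the threshold.

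Dlgap1, the gene of GKAP, the founding member of its family, was the most abundant member in vehicle libraries, at 1031, 1042, 1067, 950.5 and 959 CPM. PM libraries had 736, 685 and 701 CPM in the first set and 800.5, 815 and 844 CPM in the second. The groups did not overlap, and the second-set PM values lay nearer to vehicle. The mean went from 1009.8 ± 52.1 to 764 ± 65.1 CPM, a log2 fold change of -0.41 (SE 0.077, edgeR adjusted p = 0.000311). The second-set value of -0.22 lost its call with no filter (-0.20, edgeR adjusted p = 0.125) and without vehicle replicate 1, 4 or 5 or PM replicate 2, 4 or 5. Over all libraries Dlgap1 turned to 0.28 with transcript length and GC trends taken out (SE 0.076, edgeR adjusted p = 0.00565) and to 0.90 with gene span removed too.

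Dlgap3, the gene of SAPAP3, whose loss in mice is known for compulsive grooming, was higher in PM chiefly in the second set. Vehicle replicates 1 to 5 had 228, 241.5, 240.6, 217 and 224.5 CPM. The first set of PM libraries had 319.9, 287 and 233 CPM, where replicate 3 lay inside the vehicle range. The second set had 450.4, 464 and 484 CPM, all above every vehicle library. Over all libraries the log2 fold change was 0.61 (SE 0.15, edgeR adjusted p = 0.0022), from 230.3 ± 10.6 to 373 ± 106 CPM. In the first set it was 0.24 (SE 0.10, edgeR adjusted p = 0.0473), a call that was lost in 9 of the 11 fits that each left out a library. In the second set it was 1.08 (SE 0.12, edgeR adjusted p = 9.49e-07).

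Dlgap4, the gene of SAPAP4, fell in the first set and did not pass the test in the second. It stood at 356, 345, 363, 315 and 329 CPM in vehicle. In PM it was at 230.4, 204 and 184 CPM in the first set, all below vehicle, and at 325, 309.8 and 321 CPM in the second, next to the vehicle values of that set. Over all libraries the log2 fold change was -0.45 (SE 0.13, edgeR adjusted p = 0.00739). In the first set it was -0.78 (SE 0.092, edgeR adjusted p = 1.1e-06), and in the second -0.02 (SE 0.10, edgeR adjusted p = 0.901). With transcript length and GC trends taken out Dlgap4 was lower in the second set too, at -0.34 (edgeR adjusted p = 0.00142).

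**Figure D2:**
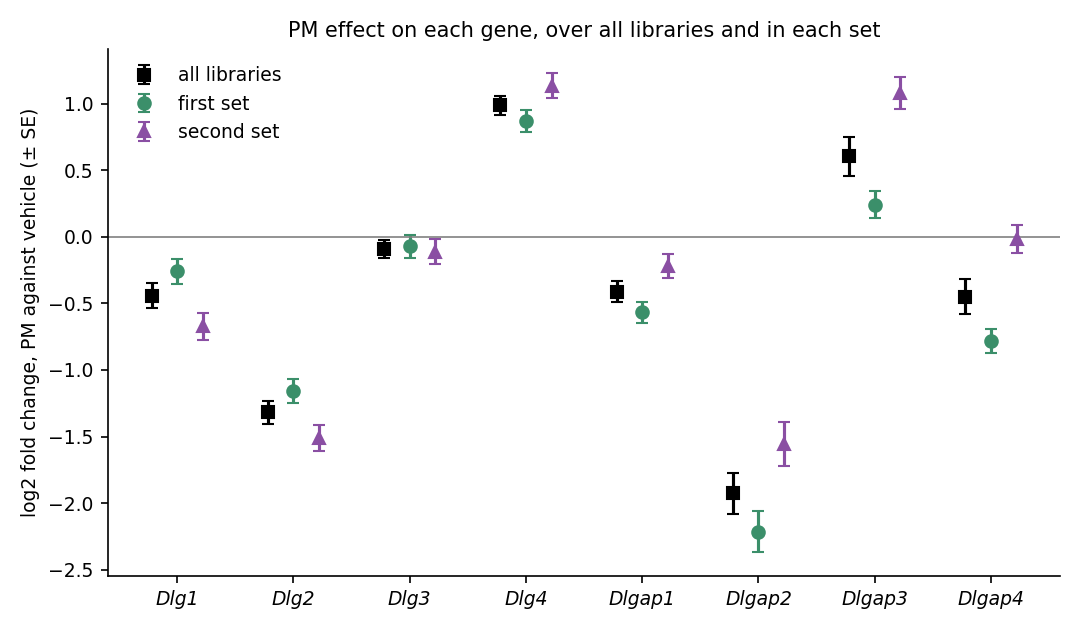
Log2 fold change of PM against vehicle for each scaffold gene, ± SE, over all libraries (squares) and by set (circles, first; triangles, second). Dlgap3 and Dlgap4 lie higher in the second set by 0.84 and 0.77 and Dlg1 lower by 0.41, while Dlg4 is above 0 and Dlg2 and Dlgap2 below 0 in both sets.

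The PM effect was compared between the sets in a single fit with 4 levels, each a group within a set. In the first set 2 members were higher and 5 lower, against 71.0% of tested genes called (32.1% higher and 38.9% lower). In the second 2 were higher and 4 lower, against 64.8% (32.3% and 32.5%). In the first set all PM libraries lay above vehicle for 1 member and below for 5, against 73.8% of tested genes without overlap (33.1% above and 40.7% below). In the second set they lay above for 2 and below for 5, against 78.3% (39.5% and 38.9%). The difference between sets passed for 5 members, against 29.6% of tested genes (17.5% higher and 12.1% lower). It was positive for all 4 Dlgap genes and negative for Dlg1. The Dlgap3 effect was higher in the second set by 0.84 (SE 0.16, edgeR adjusted p = 0.00119) and the Dlgap4 effect by 0.77 (SE 0.14, edgeR adjusted p = 0.000874). These 2 differences kept their call in each of 11 fits that left out a library. With the presence of Y-linked counts (at least 100 together) as a covariate they also passed, at 0.70 and 0.66. In vehicle that presence coincides with the set, so this fit cannot tell the 2 apart there. The difference of Dlgap4 was lost with transcript length and GC trends taken out (0.28). The differences of Dlg1 (-0.41, edgeR adjusted p = 0.0348), Dlgap1 (0.35, edgeR adjusted p = 0.0377) and Dlgap2 (0.66, edgeR adjusted p = 0.0378) were lost with the Y-linked covariate and in 6, 6 and 7 of the fits that left out a library.

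The PM libraries were also compared between the sets. In PM, the second set was higher for Dlgap1, Dlgap2, Dlgap3 and Dlgap4 by 0.21, 0.45, 0.74 and 0.63 on the log2 scale and lower for Dlg1 and Dlg2 by 0.31 and 0.45. These 6 of 8 calls stand against 47.7% of tested genes called in that comparison, 24.9% higher and 22.8% lower. Vehicle values of the second set minus the first ran from -0.21 for Dlgap2 to 0.10 for Dlg1, with an edgeR adjusted p = 0.99989 for every member. That comparison of 3 with 2 libraries called 0 of 14982 genes by edgeR (534 had an unadjusted p under 0.05), and Xist, at a log2 difference of 9.81, did not pass either, so it says nothing particular about the members. Beside these differences, counts with no feature averaged 20.4% in the first set of PM and 31.7% in the second, and Rn45s 14.4% and 5.60% of gene counts. The part of these measures in the differences was not tested.

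Levels of different genes were compared per kilobase of the principal transcript (CPM per kb). In vehicle the order from high to low was Dlgap1 (191 ± 9.87 CPM per kb), Dlg4 (163 ± 10.04), Dlg2 (88.3 ± 3.50), Dlgap4 (70.4 ± 4.07), Dlgap3 (54.7 ± 2.53), Dlg3 (43.9 ± 2.44), Dlgap2 (37.9 ± 4.14) and Dlg1 (27.9 ± 2.21), each with SD over 5 libraries. Only Dlg3 and Dlgap2 were neighbours whose ranges overlapped. In PM, Dlg4 led at 324 ± 19.05 CPM per kb, followed by Dlgap1 at 145 ± 12.3, Dlgap3 at 88.7 ± 25.3 and Dlgap4 at 54.1 ± 13.1 (SD, n = 6). Dlg3 at 40.8 ± 3.55 and Dlg2 at 35.1 ± 6.41 came next, then Dlg1 at 20.5 ± 2.68 and Dlgap2 at 10.2 ± 2.32. In PM the ranges of Dlgap3 and Dlgap4, of Dlgap4 and Dlg3, and of Dlg3 and Dlg2 overlapped. Dlg2 thus went from rank 3 to rank 6, and Dlgap2 from rank 7 to rank 8. The order depends on which length is used, as with the union of all annotated exons, chosen after seeing the data, Dlgap3 ranked 2 in vehicle and in PM, and Dlg4 ranked 3 in vehicle and 1 in PM.

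Dlg4 took a larger share of its family in PM. Of the summed CPM per kb of Dlg1 to Dlg4, Dlg4 held 50.5% ± 0.909 in vehicle (SD, n = 5) and 77.0% ± 2.898 in PM (SD, n = 6). The share of Dlg2 went from 27.3% ± 0.727 to 8.37% ± 1.58, that of Dlg3 from 13.6% ± 0.167 to 9.71% ± 0.862, and that of Dlg1 from 8.66% ± 0.908 to 4.87% ± 0.699. For each of the 4 the vehicle and PM ranges of the share did not overlap. Shares were not recomputed with the transcript length, GC and gene span trends removed. That removal brought the log2 fold changes of Dlg2 and Dlg4 closer together (-0.25 and 0.70, then 0.53 and 0.66 with span). The sum over the Dlg family was 323 ± 14.4 CPM per kb in vehicle and 420.4 ± 14.1 in PM, with every PM library above every vehicle library. Per kilobase of union exons the Dlg sums were 132 ± 5.59 and 144 ± 5.02 and the groups overlapped, while Dlg4 held 32.5% ± 0.680 and 59.1% ± 3.68, again without overlap. In the Dlgap family the share of Dlgap3 went from 15.5% ± 0.446 to 29.3% ± 3.53 and that of Dlgap2 from 10.7% ± 0.784 to 3.41% ± 0.421. The share of Dlgap1 was 54.0% ± 0.413 in vehicle and 49.3% ± 4.98 in PM, and that of Dlgap4 19.9% ± 0.292 and 18.0% ± 1.35. The Dlgap sum was 354.5 ± 19.1 CPM per kb in vehicle, 252 ± 20.9 in the first set of PM and 344 ± 8.88 in the second. Per kilobase of union exons it was 172 ± 9.19, 131 ± 14.8 and 194 ± 5.39, so the second set of PM lay above vehicle on that scale, and Dlgap3 held 29.7% ± 0.848 in vehicle and 50.1% ± 3.70 in PM.

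**Figure D3:**
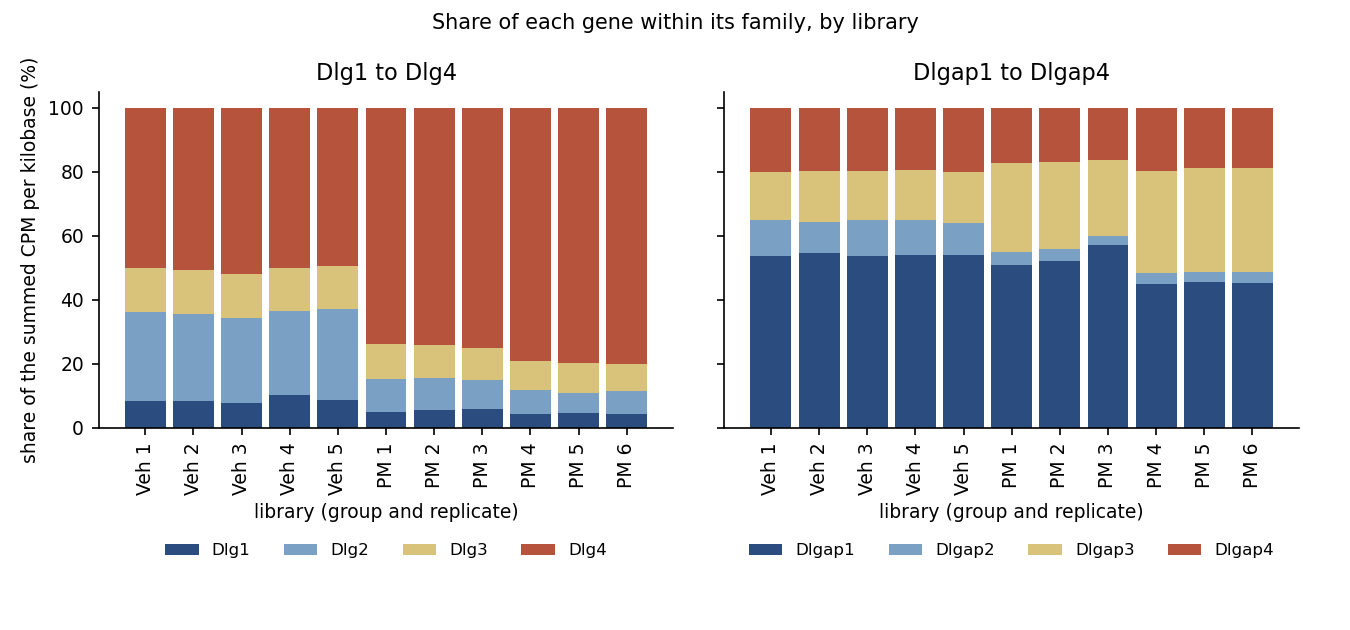
Share of each gene in the summed CPM per kilobase of its family, in percent, for each of the 11 libraries (Veh, vehicle); left, Dlg1 to Dlg4, right, Dlgap1 to Dlgap4. The Dlg4 share is between 49.6% and 52.0% in vehicle and between 73.9% and 80.01% in PM libraries, and the Dlgap3 share between 14.9% and 15.9% and between 23.8% and 32.5%.

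Ratios of 2 members within a library do not depend on the library's size. Of 12 ratios within the families, 11 differed between PM and vehicle (two-sided exact permutation test over samples, adjusted over the 12). Unlike the edgeR tests, this test splits all 11 libraries without regard to set. The smallest p this test allows is 0.0021645 and the smallest within 1 set is 0.1, so values by set carry no test. Ratios of other gene pairs were not computed. With 32.7% of all tested genes called higher and 36.4% lower by edgeR, the count of 11 does not set these families apart. The Dlg2 to Dlg4 ratio was lower in PM by 2.34 on the log2 scale, a 5.05-fold change, at log2 ratios of 0.22 ± 0.057 in vehicle and -2.12 ± 0.33 in PM (exact permutation adjusted p = 0.00289). By set the change was -2.03 and -2.65. The ratios were not recomputed with the transcript length, GC and gene span trends removed, and unlike library size these do not cancel in a ratio. With length and GC removed the log2 fold changes were -0.25 for Dlg2 and 0.70 for Dlg4. With span removed too they were 0.53 and 0.66, so these 2 genes then lay much closer together. The Dlgap2 to Dlgap3 ratio was 5.93-fold lower, at -2.48 and -2.64 by set (exact permutation adjusted p = 0.00289). With length and GC removed Dlgap2 and Dlgap3 were at -2.10 and 0.45, and with span removed too at -1.40 and 0.52. The Dlgap3 to Dlgap4 ratio was 2.09-fold higher, by 1.02 and 1.09 in the sets, so these 2 genes moved apart by a like amount in each set although their own fold changes differed between sets. The Dlgap1 to Dlgap4 ratio did not pass, at 0.01 over all libraries (exact permutation p = 0.929). By set its change was 0.22, with all PM libraries above vehicle, and -0.20, with all PM libraries below. The value near 0 thus joins opposite changes in the 2 sets. The Dlg1 to Dlg3 ratio had the smallest change of those that passed, -0.35 (exact permutation adjusted p = 0.0118), at -0.19 in the first set, where the groups overlapped, and -0.56 in the other.

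Fold changes of all genes fell with the span of the gene and the length of the transcript and rose with GC content. Over 14424 genes with an annotation, Spearman's rho with the log2 fold change was -0.42 for span, -0.48 for transcript length and 0.39 for GC content, across genes, which are not independent replicates. Over the 8 members the same values were -0.76, -0.31 and 0.40, given as a description. Genes were ranked by span into 5 equal bins. In the bin of longest spans, 79.07 kb and over, the median log2 fold change was -0.76 and 69.4% of genes were lower. That bin held Dlg1, Dlg2, Dlgap1, Dlgap2 and Dlgap4, the same 5 members that were lower in PM. Dlg2 (-1.32) and Dlgap2 (-1.93) lay below the median of that bin, and Dlg1, Dlgap1 and Dlgap4 above it. Dlg4 was at 0.99 in the bin from 17.8 to 34.54 kb, where the median was 0.09, and Dlgap3 was at 0.61 in the bin from 34.54 to 79.06 kb, where it was -0.28. By GC content Dlgap2, at 56.9%, fell in the richest of 5 such bins, whose median was 0.45.

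**Figure D4:**
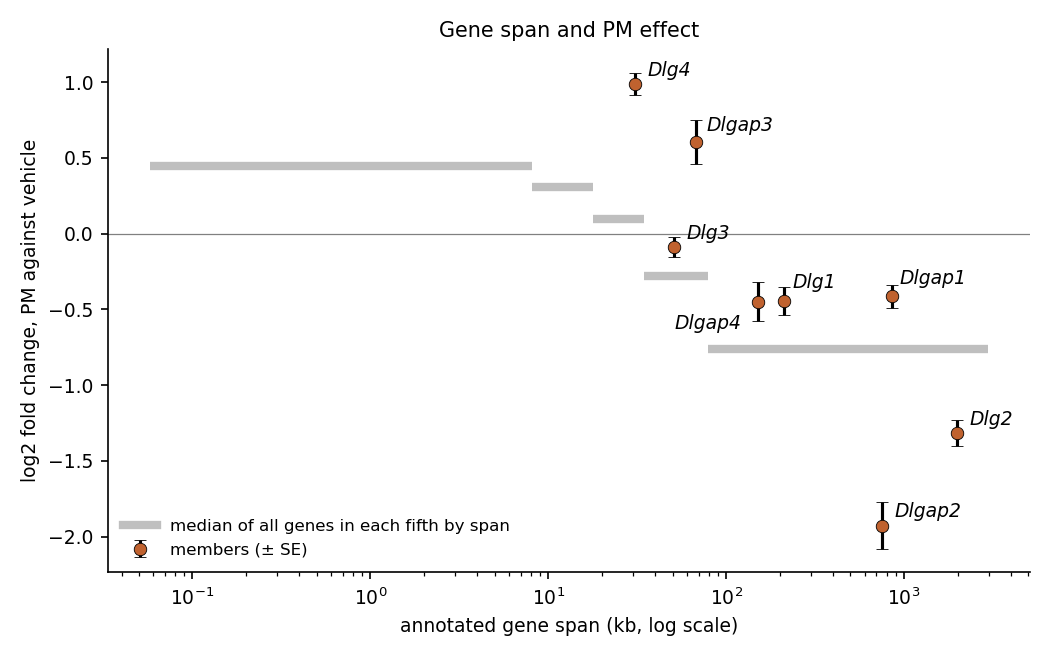
Log2 fold change of PM against vehicle, ± SE, against the annotated span of each scaffold gene in kb (log axis); grey bars are the median of all genes in each of 5 equal bins by span, drawn over the span range of that bin. Dlg4 and Dlgap3 lie above the median of their bin, and Dlg2 and Dlgap2 below it.

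The trends were also removed library by library before the test. With transcript length and GC trends taken out, Dlg4 was at 0.70 (SE 0.068, edgeR adjusted p = 9.44e-07), Dlgap3 at 0.45 (SE 0.078, edgeR adjusted p = 0.000179), Dlgap2 at -2.10 (SE 0.10, edgeR adjusted p = 4.21e-09) and Dlgap4 at -0.50 (SE 0.070, edgeR adjusted p = 3.02e-05), all in the direction found without removal. Dlg1 (0.19), Dlg3 (0.28) and Dlgap1 (0.28) changed sign, and Dlg2 stood at -0.25. With the gene span trend removed as well, 6 members were higher and 2, Dlgap2 (-1.40) and Dlgap4 (-0.23), lower, against 36.6% and 27.3% of all tested genes. The removal itself moved the median of all genes by 0.13 on the log2 scale (0.12 with span), so the values are relative to that shift. It also moved the share of calls that were higher from 47.4% to 57.4% (57.3% with span).

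**Figure D5:**
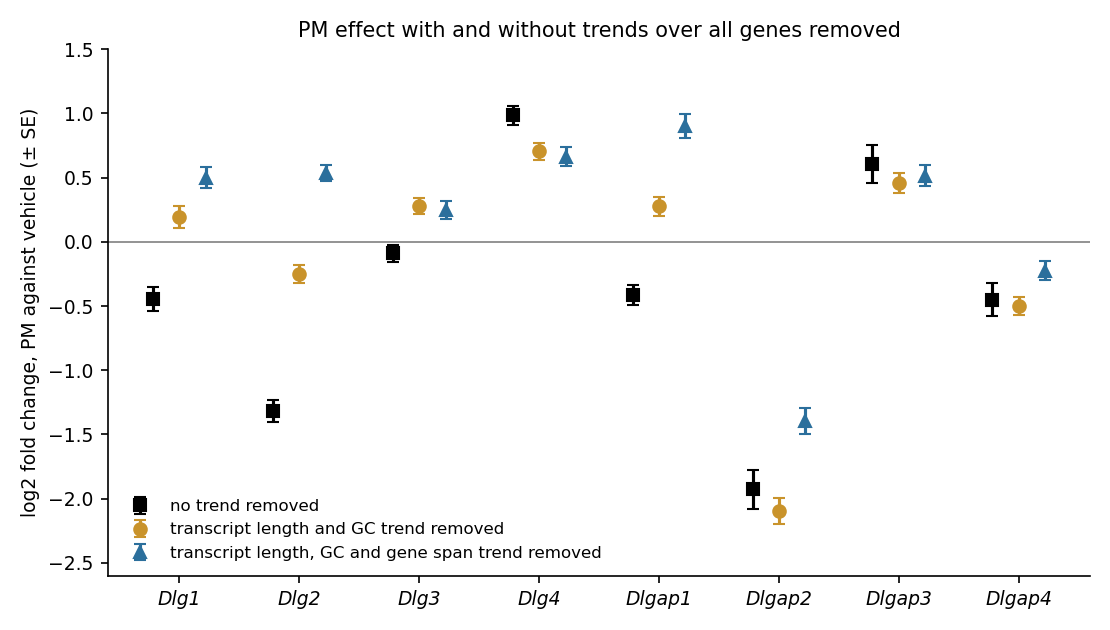
Log2 fold change of PM against vehicle, ± SE, for each scaffold gene with no trend removed (squares), with the transcript length and GC trend removed (circles) and with the gene span trend removed as well (triangles). Dlg4, Dlgap2, Dlgap3 and Dlgap4 keep their sign, Dlg1, Dlg3 and Dlgap1 change it once length and GC are removed, and Dlg2 changes it once gene span is removed too.

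Transcripts counted separately inside the members held few counts. The antisense transcript 4930567K12Rik, on the opposite strand within Dlg2 (92092206 to 92119511) with no exon in common, held 68 to 118 counts in vehicle and 0 to 18 in PM libraries. The transcript 4930405A21Rik, on the opposite strand within Dlgap4 (156714540 to 156720909) and sharing exon sequence with it, held 19 to 45 counts in vehicle and 4 to 25 in PM. No source used here states the strand setting of the counting, so reads of Dlgap4 and of the transcript opposite to it cannot be told apart.

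For each member, the gene whose log2 CPM followed it most closely over the 11 libraries was found among 14499 genes. Dlg2 was most like Slc24a2, a potassium-dependent sodium-calcium exchanger (Pearson r 0.999, Spearman rho 0.973), and Dlgap2 most like Fry (0.998 and 0.945). Dlg4 was most like Rxrb, a retinoid X receptor (0.996 and 0.918), Dlgap3 like Gga1, an adaptor of vesicle sorting (0.993 and 0.882), and Dlgap4 like Cacna1a, the pore of P/Q-type calcium channels (0.996 and 0.927). Dlg1 was most like Hlf (0.983 and 0.936), Dlgap1 like Tmem150cos (0.988 and 0.973) and Dlg3 like Dact1 (0.940 and 0.945). Tmem150cos was low, at means of 3.34 CPM in vehicle and 0.356 in PM. With the mean of each group and set taken out, Pearson r was lower. It ran from 0.49 for Dlg4 with Rxrb to 0.94 for Dlgap4 with Cacna1a, and was 0.69 for Dlgap1 with Tmem150cos. All these libraries share the groups, the sets and the composition described above, and the values are a description over 11 libraries.

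Of 33 ligands and other partners of Dlg proteins, 6 were higher, 20 lower and 7 did not pass, with a median log2 fold change of -0.57, against 32.7% of all tested genes higher and 36.4% lower. Grin2a and Grin2b, genes of NMDA receptor subunits whose tails bind PSD-95, were at -3.44 (SE 0.17, edgeR adjusted p = 3.39e-09) and -2.75 (SE 0.16, edgeR adjusted p = 1.04e-08). Grin2c, of the same family, was higher, at 0.81 (SE 0.13, edgeR adjusted p = 0.00011), and Grin2d, at 0.009, did not pass. Cnksr2, a scaffold of Ras signalling, was at -2.10, and Nlgn1, the adhesion protein neuroligin 1, at -1.77. With transcript length and GC trends taken out Grin2a was at -1.77 and Grin2b at -0.60, both past the threshold, while the call of Nlgn1 was lost (-0.11).

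Shank and Homer, the next layer below Dlgap proteins, had 1 of 6 genes higher and 5 lower (median -1.11), against the same 32.7% and 36.4% of all tested genes, which also stand beside the lists that follow. In the first set 5 were lower and in the second 3. Shank2 was at -1.38, Homer1 at -0.999 and Homer2 at -1.23, while Homer3 was at 1.25. Without the set as covariate only 3 of the 6 were called lower. A list of 19 genes held MAGUKs outside Dlg1 to Dlg4 and also Caskin1, which is not a MAGUK. Of its 17 tested genes 2 were higher, 9 lower and 6, Caskin1 (-0.03) among them, did not pass (median -0.65). Magi2 was at -1.50, Tjp1, the tight junction protein ZO-1, at -1.24, Magi3 at -1.13 and Cask at -0.95. With transcript length and GC trends taken out 3 of the 17 were higher and 4 lower, and Cask turned to 0.15 without a call. Of 12 genes of the palmitoylation cycle that loads and unloads PSD-95 at the membrane, 4 were higher, 3 lower and 5 did not pass (median -0.06). The depalmitoylase Abhd17a was at 1.56, the palmitoyl transferase Zdhhc7 at 1.14 and the thioesterase Lypla2 at 0.95, while Zdhhc17 was at -0.33. With that trend removed 9 of the 12 were higher, against 36.8% of all tested genes, and Zdhhc17 turned to 0.38.

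Markers of cell types also moved with the groups, and their part in the values of the scaffold genes was not tested. In bulk tissue fewer cells of a type and less RNA per cell cannot be told apart. Calls are over the tested markers of a list and sums over all its listed genes. Markers of hippocampal excitatory neurons were detected in every library, with 3 of 8 higher, 4 lower and 1 not passed, and summed levels of 6189 to 7179 CPM in vehicle and 5543 to 6913 in PM. Camk2a, 1 of the 4 lower, made up most of these sums (means of 4718 CPM in vehicle and 4000 in PM). Of 7 pan-neuronal markers 4 were higher and 2 lower, with sums of 6432 to 7003 CPM and 5231 to 6629 CPM. The 2 lower made up large parts of these sums. Syt1 averaged 2139 CPM in vehicle and 1242 in PM, and Map2 1257 and 978. Of 6 oligodendrocyte markers 5 were higher (3729.8 to 4746 CPM in vehicle, 4043 to 9290.4 in PM), and of 7 microglial markers 5 were higher (209 to 228 CPM and 253 to 376). Of 6 endothelial markers 4 were higher (132 to 153 CPM and 165 to 304). Of 7 astrocyte markers 3 were higher and 2 lower, with sums of 6862 to 7266 CPM in vehicle, 5142 to 5467 in the first set of PM and 2933 to 3157 in the second. Slc1a2, 1 of the 2 lower, averaged 5751 CPM in vehicle and 2604 in PM, so these sums follow mostly this gene. The 3 higher were Gfap, Aldh1l1 and S100b. Striatal markers had 1 of 8 higher and 3 lower (209 to 217 CPM and 133 to 159), thalamic markers 2 of 5 higher and 3 lower (141 to 152 CPM and 83.1 to 92.7). Of 7 choroid plexus markers 6 were tested and 1 was lower, and the sum over all 7 ran from 75.5 to 1289 CPM in vehicle, from 46.3 to 2505 in the first set of PM and from 34.5 to 81.1 in the second. Of 5 pituitary markers 2 were tested and both were higher (sums over all 5 of 1.09 to 1.42 CPM in vehicle and 2.45 to 21.1 in PM). No marker of the neuronal or glial lists was at 0 in any library.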

How the data were processed

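Hippocampal RNA of 11 mouse offspring samples was sequenced as 100-base paired reads. The total RNA had an integrity number over 8 and was depleted of ribosomal RNA, per the labels' protocols, while the molecule field names polyA RNA. The deposited files hold whole-number gene counts, which the authors did not normalize (1 file per sample). Per the submitters' processing notes FastQC 0.11.9, Trimmomatic 0.36, STAR, SAMtools 1.9, Picard 2.9.2 and HTSeq 0.9.1 were used, with builds mm10 and hg19 named. The STAR version and the strand setting are not given in the sources used here.

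The 8 genes and the gene lists were chosen with earlier results of these data known. Entries that name no gene (no feature, 18.8% to 62.0% of counts, ambiguous, 0.538% to 1.42%) were left out of library sizes. Genes with enough counts (edgeR's filterByExpr, minimum count 10) were tested with edgeR 4.0.16 (R 4.3.3): TMM scaling, robust quasi-likelihood fit, set and group as terms, two-sided, Benjamini-Hochberg over 14982 genes, threshold 0.05. Effects by set and their difference came from a joint fit with 4 levels, each a group within a set. Standard errors are the fold change over the root of F. On simulated data 52% of genes changed 1.5-fold and 85% of those changed 2-fold were recovered for PM against vehicle, and 7% and 49% for the difference between sets. The simulation changed few genes, as many up as down, with no shift of composition. In the data 69.1% of tested genes were called, so these rates may not hold there.

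Gene spans, APPRIS principal transcripts and sequences came from GENCODE M21 (GRCm38), which matched 95.75% of symbols. Length, GC and span trends were natural splines (4 degrees of freedom each) of each library's log2 CPM deviation, entered as offsets. Genes named are all 8 members, up to 4 of smallest p from each pathway list, transcripts inside a member with at least 10 counts in a library, and the most alike gene of each member. Caskin1, Grin2c, Grin2d, Shank1, Shank3 and some cell type markers are named besides, to qualify their lists. DESeq2 1.42.0, other scalings, no filter, each set alone, the replicate number as a block and leaving out each library were alternatives.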

Additional observations from a re-analysis of the deposited data

Results flagged for a closer look

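The PM effect differed between the sets for 5 members, by the test of the difference itself. On the log2 scale, as the second set minus the first, the difference was -0.41 for Dlg1 (-0.26 and -0.67), 0.35 for Dlgap1 (-0.57 and -0.22), 0.66 for Dlgap2 (-2.21 and -1.56), 0.84 for Dlgap3 (0.24 and 1.08) and 0.77 for Dlgap4 (-0.78 and -0.02). The edgeR adjusted p-values were 0.0348, 0.0377, 0.0378, 0.00119 and 0.000874 in that order. With the presence of Y-linked counts as a covariate, chosen after seeing the data, the values were -0.33, 0.37, 0.45, 0.70 and 0.66, and those of Dlgap3 and Dlgap4 still passed. In vehicle this covariate coincides with the set, so it cannot be told apart from the set there. Libraries whose omission lost a call were vehicle 1, 3 and 4, and PM 2, 3 and 4 for Dlg1, vehicle 1, 3, 4 and 5, and PM 2 and 6 for Dlgap1, and the last 6 together with PM 4 for Dlgap2.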

How the results depend on the processing

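Over all libraries Dlg4, Dlgap2 and Dlgap3 kept direction and call under each of 13 alternatives, and no member lost its call when any library was left out. Dlg3, near 0, turned to 0.0039 with no filter on low counts, 0.024 with the first set only and 0.0097 without Rn45s, Lars2 and Mir6236. Removing the length and GC trend gave 4 members higher and 3 lower. Dlg3 (0.28), Dlgap1 (0.28) and Zdhhc17 (0.38) passed there, while Dlg1 (0.19) and Cask (0.15) did not. With gene span too there were 6 and 2, with Dlg1 0.50, Dlg2 0.53, Dlg3 0.25, Dlgap1 0.90, Cask 0.46, Nlgn1 0.39 and Zdhhc17 0.44. Deviations of same-numbered vehicle and PM libraries from their group and set means were not positively correlated (-0.176 to -0.005). This cannot exclude a pairing, as the libraries are few and the 2 vehicle libraries of the second set mirror each other by construction. The replicate block gave 4318 genes higher and 4890 lower and changed no member's call. The replicate block with the length and GC trend removed gave 3478 genes lower and 2 members lower. There Dlg3 (0.29) and Zdhhc17 (0.39) passed, while Dlg1 (0.21), Dlgap1 (0.26), Cask (0.16) and Dlg2 (-0.24) did not.

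In the main fits 71.0% of tested genes were called in the first set, 64.8% in the second and 29.6% for the difference. The member counts that follow alone set no member apart. In the first set, removing the length and GC trend left 4 members higher and 2 lower. Dlg1 turned to 0.33 and Dlg3 to 0.39, while Dlgap1 (0.11) and Dlg2 (-0.13) had no call. The second set gave Dlg1 0.022, Dlg3 0.14 and Dlgap1 0.49, and Dlgap4 gained a call (-0.34). The difference between sets then passed for 2 members higher and 0 lower, with Dlg4 at -0.21. DESeq2 size factors gave 2 higher and 2 lower, as did no filter, which also gave Dlg3 0.076 in the first set and Dlgap4 0.0091 in the second. The first set fitted alone gave Dlg3 0.024. The presence of Y-linked counts as a covariate, added after seeing the data like gene span, gave 1379 genes higher and 598 lower and 2 members higher and 0 lower for the difference. The Dlgap1 call in the second set was lost with that covariate (-0.21) and with no filter (-0.20). Leaving out a library moved that difference between 1653 and 3151 genes higher and between 747 and 2461 lower, lowest without vehicle replicate 5, and between 2 and 4 members higher and 0 and 2 lower. It moved members higher in the first set between 1 and 2, Dlg3 there between -0.14 and 0.02, its difference between -0.15 and 0.028, Dlgap4 in the second set between -0.048 and 0.016, and the Dlgap1 to Dlgap4 ratio between -0.061 and 0.066. The causes were not tested.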

Other observations

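Dlg3 and Dlgap4 had the same count in PM replicate 1 (3795) and again in PM replicate 2 (3453), and different counts in the other 9 libraries. Among genes with at least 1000 counts in both libraries, 4 pairs of genes were tied in this way in PM replicates 1 and 2, and 18 of the 55 pairs of libraries held at least 1 such tie, with at most 4.

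Xist, the RNA of X inactivation, had 22 to 35 counts in the vehicle libraries of the first set and 14819 and 20726 in those of the second. PM replicates 1 to 3 had 274, 6 and 2894 counts, and PM replicates 4 to 6 had 9, 8 and 10382.

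After the mean of each group and set was taken out, Dlgap2, Dlgap3 and Dlgap4 deviated together over the 11 libraries. Pearson r was 0.85 for Dlgap2 with Dlgap3, 0.89 for Dlgap2 with Dlgap4 and 0.88 for Dlgap3 with Dlgap4. This was not particular to the Dlgap family, as Dlg3 had 0.81 with Dlgap1 and 0.79 with Dlgap3. Dlgap1 had 0.47 to 0.54 with the other Dlgap genes. Dlg1 and Dlgap4 deviated in opposite directions (-0.71). These libraries share few degrees of freedom and the composition of their set, and the values are a description.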
